A study of Homo sapiens with 12 samples.

Results

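The 10 genes described here encode NODAL and its antagonists LEFTY1 and LEFTY2, the bone morphogenetic proteins BMP2, BMP4, BMP6 and BMP7, the activin subunits INHBA and INHBB, and GDF15. They were taken by name from the 27348 genes of the deposited expression table, and each was searched for peaks in 3 lists of binding sites. The cells were K562, an established human erythroleukemia line that carries the BCR-ABL fusion. They had been infected with a lentivirus holding an empty vector (shCT) or a short hairpin RNA against the long isoform of PHF19 (sh1 or sh2), so all groups carried a virus, and the infected cells were selected with puromycin according to the study's methods. RNA-seq was made from 6 libraries, 2 for each of shCT, sh1 and sh2. ChIP-seq, which sequences the DNA bound by a protein, was made from 6 libraries, 1 per condition. The peak lists used here are those of PHF19 in shCT, of MTF2 in shCT and of MTF2 in sh2. With 1 library behind each list, and with the expression table used only for its mean over all 6 RNA-seq libraries, no difference between conditions could be tested here, and every value below is a description.

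All 10 proteins are secreted members of the TGF-beta superfamily. NODAL and the activins signal through type I and type II receptor kinases to SMAD2 and SMAD3, the BMPs to SMAD1, SMAD5 and SMAD9, and GDF15 signals through the receptor GFRAL. In the embryo NODAL and the BMPs pattern the germ layers and the body axes, and many of their genes are classical targets of Polycomb repressive complex 2 (PRC2), which methylates histone H3 on lysine 27. PHF19 and MTF2 are Polycomb-like subunits of that complex that bind DNA rich in unmethylated CG dinucleotides. Activin A, a dimer of INHBA products, was known early on as an erythroid differentiation factor for leukemia cells such as K562, and GDF15 is secreted by maturing erythroblasts and by stressed cells.

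Since Polycomb-like proteins bind DNA rich in CG, the 250 bases before the transcription start site (TSS) are shown for BMP6, which had the strongest MTF2 peak of the 10 genes, for INHBB, which had the most CG dinucleotides of the promoters reported here, and for NODAL, which lay under peaks of all 3 lists with few of them. Each sequence is the GRCh37 reference, read 5′ to 3′ on the strand of the gene and ending at the base before the TSS of the MANE Select transcript, the representative transcript of a gene. Capitals mark each CG, which reads the same on both strands. None of these bases lay in an annotated exon.
BMP6, chr6:7726082-7726331, plus strand: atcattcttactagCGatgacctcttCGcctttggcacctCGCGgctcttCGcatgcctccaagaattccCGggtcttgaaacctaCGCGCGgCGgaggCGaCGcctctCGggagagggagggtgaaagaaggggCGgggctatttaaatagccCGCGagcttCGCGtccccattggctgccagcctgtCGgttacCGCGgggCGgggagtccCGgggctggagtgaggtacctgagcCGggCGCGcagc
INHBB, chr2:121103462-121103711, plus strand: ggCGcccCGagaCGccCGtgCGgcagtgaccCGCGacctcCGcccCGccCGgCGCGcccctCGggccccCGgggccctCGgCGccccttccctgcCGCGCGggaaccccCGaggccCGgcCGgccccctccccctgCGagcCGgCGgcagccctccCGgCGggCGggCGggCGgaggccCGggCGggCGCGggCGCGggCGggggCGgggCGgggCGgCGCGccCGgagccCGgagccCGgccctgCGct
NODAL, chr10:72201438-72201687, minus strand: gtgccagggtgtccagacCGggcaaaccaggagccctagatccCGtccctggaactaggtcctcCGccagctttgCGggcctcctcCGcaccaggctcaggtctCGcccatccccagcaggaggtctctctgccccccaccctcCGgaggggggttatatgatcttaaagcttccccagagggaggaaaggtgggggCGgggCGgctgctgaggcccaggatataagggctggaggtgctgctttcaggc

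BMP6 held 26 CG in these 250 bases, NODAL 9 and INHBB 46. Among the promoters of 17975 MANE transcripts the median was 19, with quartiles of 8 and 27, and 97.3% held at least 1 CG. INHBB had more CG than 99.3% of them and BMP6 more than 71.1%. Relative to the number that the C and G content alone would give, the ratio was 1.01 in BMP6, 0.919 in INHBB and 0.339 in NODAL. The other promoters reported here held 23 CG for BMP7, 19 for BMP4, 9 for GDF15, 1 for LEFTY1, 1 for INHBA and 0 for LEFTY2. Of their 250 bases, 241 lay in an annotated exon for GDF15, 163 for LEFTY2 and 124 for BMP7. Promoters whose TSS lay under a peak had a median of 26 CG for PHF19 (n = 942), 24 for MTF2 in shCT (n = 1317) and 23 for MTF2 in sh2 (n = 2100), beside 18 where no peak lay within 2.5 kb (n = 14263).

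**Figure D1:**
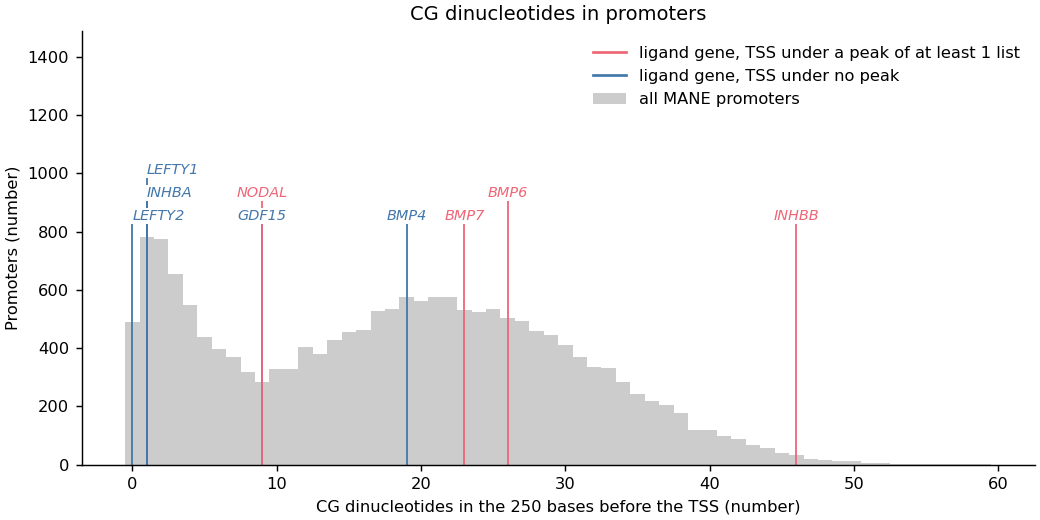
Number of CG dinucleotides in the 250 bases before the TSS (x axis) against the number of MANE promoters with that count (y axis, grey bars), with a line at the count of each ligand gene except BMP2, which is not shown (red where a peak of at least 1 list covers the TSS, blue where none does). NODAL and GDF15 share the count of 9, and LEFTY1 and INHBA share the count of 1. INHBB, with 46, is the line furthest to the right.

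A gene was counted as bound when a peak overlapped, by at least 1 bp, the region from 2.5 kb upstream of any TSS to the end of its transcripts. PHF19 peaks in shCT lay at 2 of the 10 genes, NODAL and BMP6, where 10.3% of the 22969 genes that could be placed on the genome had one. MTF2 peaks in shCT lay at 4, with BMP7 and INHBB added, against 13.7% of all genes. MTF2 peaks in sh2 lay at 5, with INHBA added, against 18.2% of all genes. Among 10 genes, each gene is 10.0% of the members, so the PHF19 share of 20.0% lay within 1 gene of its background, and the MTF2 shares lay more than 1 gene above theirs. The genes were chosen with earlier results of these data known, so no enrichment can be read from these shares. When only peaks within 2.5 kb of a TSS were counted, the numbers stayed at 2, 4 and 5 of 10, beside 8.0%, 11.3% and 15.8% of all genes. NODAL and BMP6 were bound in all 3 lists, as were 6.5% of all genes. INHBA alone had an MTF2 peak in sh2 and none in shCT, as did 5.46% of all genes, and no member had one in shCT only, beside 0.923% of all genes. LEFTY1, LEFTY2, BMP2, BMP4 and GDF15 had no peak in any list, as did 78.1% of all genes.

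The lists differed in extent over the whole genome. The PHF19 list held 5621 peaks over 11.5 Mb, the MTF2 list in shCT 12502 peaks over 29.0 Mb and the MTF2 list in sh2 18287 peaks over 63.2 Mb, which was 2.18 times the shCT length. Scores of different lists are on no shared scale, so only ranks within a list are compared below. Erythroid genes fixed as markers of K562 were all present, with mean normalized counts of 632 to 172000 for 10 of 10, while 5 of 9 markers of other cells reached a mean of 10, the highest of them EPCAM at 3070. PHF19 had a mean normalized count of 7800 and MTF2 one of 2800 over the 6 libraries, and the depletion of PHF19 was not checked here because this mean pools the groups.

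**Figure D2:**
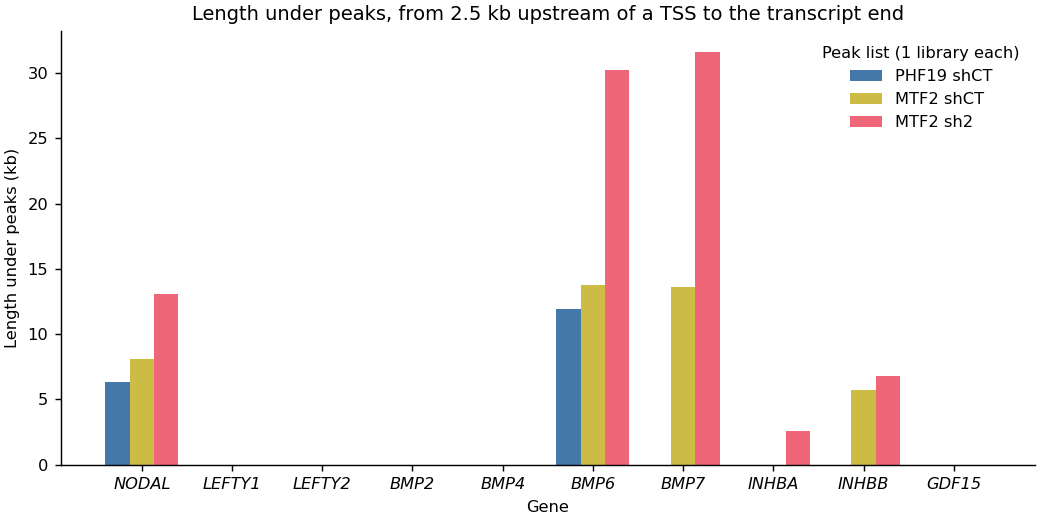
Length under peaks in kb (y axis) at each ligand gene (x axis), in the region from 2.5 kb upstream of a TSS to the transcript end, for the PHF19 list in shCT (blue), the MTF2 list in shCT (yellow) and the MTF2 list in sh2 (red), each from 1 library. LEFTY1, LEFTY2, BMP2, BMP4 and GDF15 have no bar, BMP6 and BMP7 have the longest MTF2 coverage in sh2 at 30249 and 31612 bp, and INHBA has a bar in sh2 only.

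NODAL, the ligand that induces mesendoderm and sets the left-right axis, lay under broad peaks of both proteins. The gene (ENSG00000156574, chr10:72191692-72201437, minus strand, GRCh37) has 3 exons. The PHF19 peak at chr10:72197193-72203496 was 6304 bp wide, covered the TSS, exon 1 and part of the first intron, and ranked 305 of 5621 by score. The MTF2 peak in shCT, chr10:72198867-72206990, was 8124 bp wide and ranked 1128 of 12502. It reached 5.55 kb upstream of the TSS and 2.57 kb into the gene, whereas the PHF19 peak reached 2.06 kb upstream and 4.24 kb into the gene, so the MTF2 peak was placed further upstream. In sh2, MTF2 had a peak of 7429 bp over the TSS (chr10:72196015-72203443, rank 492 of 18287) and one of 5649 bp that began 26 bp further upstream (chr10:72203470-72209118, rank 4950), which covered the start of another coding transcript of NODAL. Together the sh2 peaks covered 13078 bp or 70.6% of the searched region, against 43.9% in shCT and 34.0% for PHF19. Of the PHF19-covered bases, 73.4% also lay under MTF2 in shCT and 99.6% under MTF2 in sh2. The sh2 peak over the TSS also lay within 2.5 kb of the start of a second annotated gene, ENSG00000280401. A separate peak in each list lay upstream of the searched region, at 14.1 to 18.7 kb for PHF19 (rank 1281), 13.2 to 19.0 kb for MTF2 in shCT (rank 382) and 12.6 to 22.7 kb for MTF2 in sh2 (rank 1656). In shCT this distal MTF2 peak ranked above the peak at the TSS.

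LEFTY1 and LEFTY2 encode secreted inhibitors of NODAL and lie close together on chromosome 1 (chr1:226073982-226076846 and chr1:226124303-226128920, minus strand, GRCh37). Neither had a peak in any list. The nearest PHF19 peak was 57.7 kb from the TSS of LEFTY2 and 110.0 kb from that of LEFTY1. The nearest MTF2 peak was 171 kb from LEFTY1 and 223 kb from LEFTY2 in shCT, and 136 kb and 188 kb in sh2. The antagonists of NODAL and NODAL itself therefore differed in binding in every list.

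BMP6, a ligand that raises hepcidin and so governs iron balance, had the highest-ranked peaks of the 10 genes. The gene (ENSG00000153162, chr6:7726332-7881961, plus strand, GRCh37) spans 155630 bp and has 7 exons. Its MTF2 peak over the TSS ranked 4 of 12502 in shCT (chr6:7725289-7730703, 5415 bp, score 2391.88) and 3 of 18287 in sh2 (chr6:7722976-7731965, 8990 bp, score 3100.0). The PHF19 peak there, chr6:7724355-7729682, was 5328 bp wide and ranked 138 of 5621. All 3 covered exon 1, with 857 bp of its 5′ untranslated part and 664 bp of coding sequence. The rank was therefore near the top in each list, and the MTF2 peak in sh2 extended further on both sides, to 3.36 kb upstream and 5.63 kb downstream, than that in shCT, at 1.04 and 4.37 kb.

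The rest of BMP6 held smaller peaks. A second MTF2 peak in intron 1 was 3441 bp wide in shCT (rank 1024) and 3197 bp wide in sh2 (rank 3362), so it was no wider in sh2. Near the end of the gene, the MTF2 peak over exons 3 and 4 was 2136 bp wide in shCT (rank 10953) and 6308 bp in sh2 (rank 5292), and the next one was 1741 bp wide in shCT (rank 7869) and 6267 bp in sh2 (rank 5040). Both were wider in sh2. One MTF2 peak, of 1030 bp at 82.8 kb from the TSS, was in the shCT list only, and 2, of 4706 bp and 1637 bp at 17.9 and 78.9 kb, were in the sh2 list only. PHF19 had 5 peaks in the region, of which that at 36.5 kb (1360 bp, rank 4285) overlapped no MTF2 peak and that at 145.0 kb (1906 bp, rank 4778) overlapped MTF2 in sh2 only. Over the region PHF19 covered 11942 bp, MTF2 covered 13763 bp in shCT and 30249 bp in sh2. MTF2 in shCT covered 53.2% of the PHF19-covered bases and MTF2 in sh2 87.5%.

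**Figure D3:**
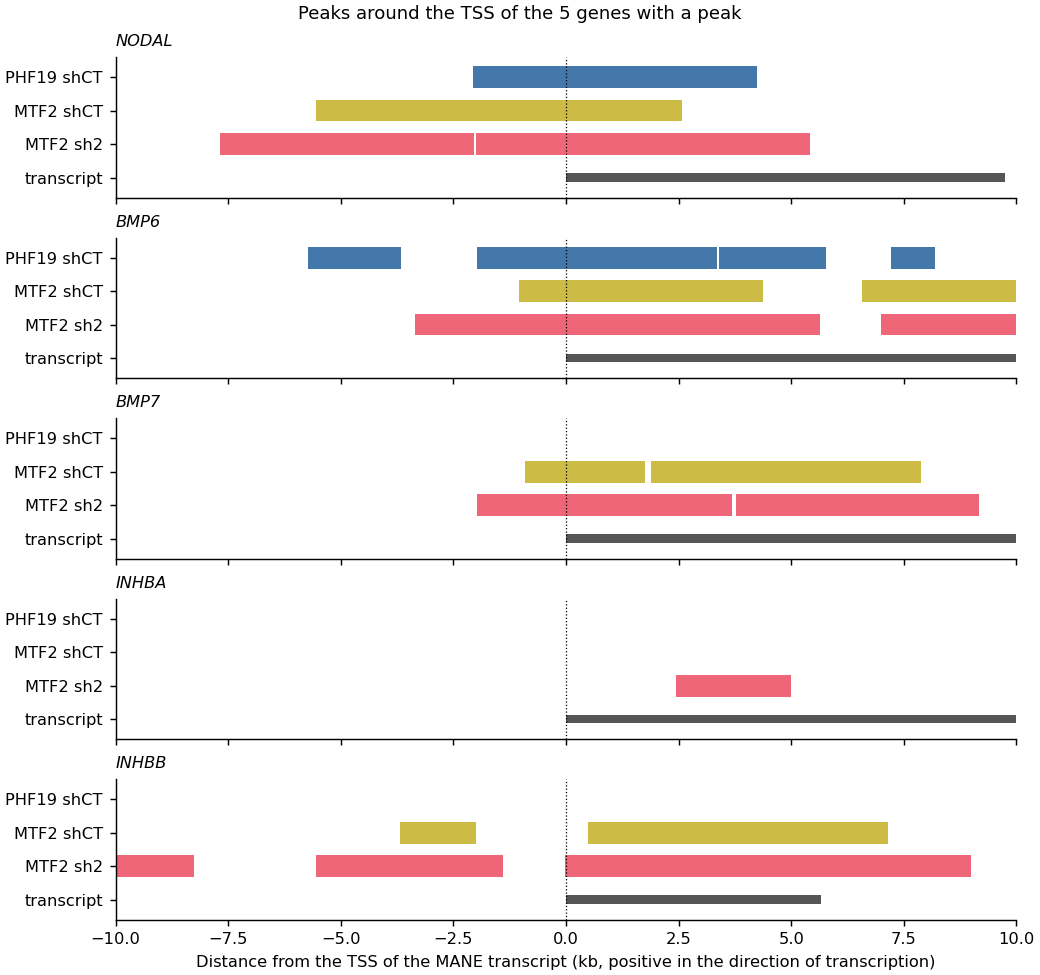
Peaks of the 3 lists (coloured bars, 1 row per list) from 10 kb before to 10 kb after the TSS of the 5 genes with a peak, with the MANE transcript in grey and the dotted line at the TSS (x axis in kb, positive in the direction of transcription). NODAL and BMP6 have bars of all 3 colours over the TSS, BMP7 has MTF2 bars only, the INHBA bar begins 2.44 kb after the TSS, and the MTF2 bar of INHBB in shCT begins 0.481 kb after it.

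BMP7, a ligand needed for kidney and eye development, had MTF2 peaks and no PHF19 peak. The gene (ENSG00000101144, chr20:55743809-55841697, minus strand, GRCh37) spans 97889 bp and has 7 exons, and the nearest PHF19 peak was 62.4 kb from its TSS. In shCT a peak of 2662 bp covered the TSS and exon 1 (chr20:55839944-55842605, rank 1594 of 12502), and a wider one of 6007 bp followed 123 bp away in intron 1 (chr20:55833814-55839820, rank 1473). In sh2 the corresponding peaks were 5644 bp (chr20:55838021-55843664, rank 2248 of 18287) and 5385 bp wide (chr20:55832531-55837915, rank 4464), with 105 bp between them. The adjoining peaks together reached from 0.908 kb before to 7.88 kb after the TSS in shCT and from 1.97 kb before to 9.17 kb after it in sh2, and the place where they were split differed between the lists. The number of MTF2 peaks along the gene was 5 in shCT and 9 in sh2, and the covered length was 13588 bp and 31612 bp, or 13.5% and 31.5% of the region. Of the shCT-covered bases 88.3% were also covered in sh2. An intronic peak 52.9 to 54.9 kb from the TSS in shCT (2036 bp, rank 3277) was 6943 bp wide in sh2 (rank 2977). It lay within 2.5 kb of the start of BMP7-AS1, an antisense gene that lies within an intron of BMP7. The peaks at the TSS lay within 2.5 kb of the start of another annotated gene, ENSG00000226308. Of the 9 sh2 peaks, 5 overlapped no shCT peak, and their ranks ran from 7979 to 18249 of 18287.

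**Figure D4:**
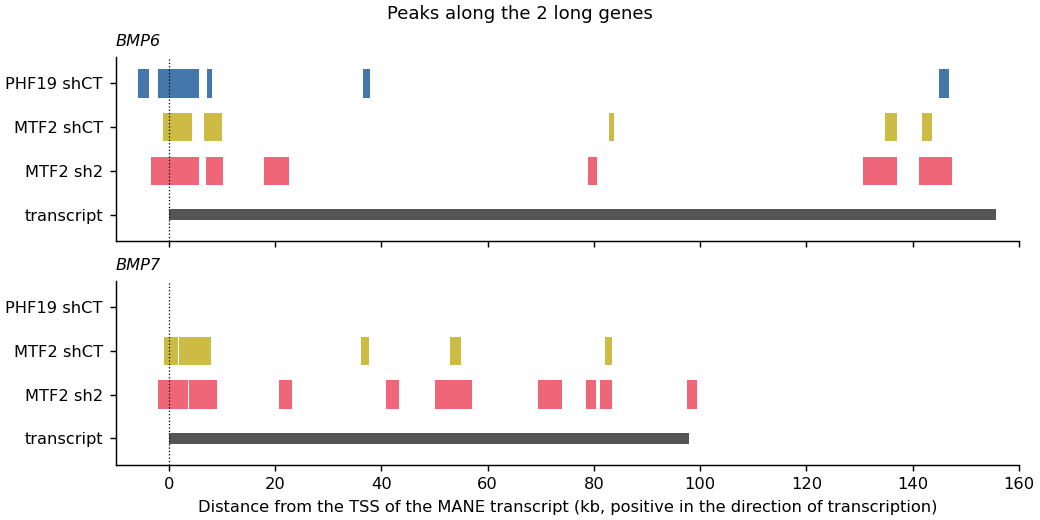
Peaks of the 3 lists (coloured bars, 1 row per list) along BMP6 and BMP7, with the MANE transcript in grey (x axis in kb from the TSS). Peaks are shown up to 10 kb outside each gene. In BMP6 the bars gather at both ends of the transcript, and in BMP7 the 9 MTF2 peaks of sh2 are spread from the TSS to the transcript end.

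BMP2 and BMP4, the closely related ligands of mesoderm and bone, had no peak. BMP2 (ENSG00000125845, chr20:6748333-6760893, plus strand) lay 645 kb from the nearest MTF2 peak in shCT, 644 kb in sh2 and 761 kb from the nearest PHF19 peak. BMP4 (ENSG00000125378, chr14:54416454-54423543, minus strand) lay 609 kb from the nearest MTF2 peak in shCT and 262 kb in sh2. The BMP4 promoter, with 19 CG, was at the genome median and lay far from any peak. The BMP ligands were thus split between BMP6 and BMP7, with several peaks each, and BMP2 and BMP4 with none.

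INHBB encodes the beta-B subunit, shared by activin B and inhibin B. The gene (ENSG00000163083, chr2:121103712-121109379, plus strand, GRCh37) spans 5668 bp and has 2 exons. The MTF2 peak in shCT, chr2:121104193-121110853, was 6661 bp wide, ranked 561 of 12502 and began 0.481 kb after the TSS. In sh2 the peak was 9029 bp wide (chr2:121103684-121112712, rank 657 of 18287) and began 28 bp before the TSS, so that it covered the whole gene. A second peak upstream was 1689 bp wide in shCT (rank 4542) and 4156 bp wide in sh2 (rank 4117). In neither list was the CG-rich sequence shown for INHBB mostly under a peak: it lay outside the shCT peaks, and only its last 28 bases lay under one in sh2. Within the searched region 69.8% was covered in shCT and 83.3% in sh2, and every base covered in shCT was covered in sh2. PHF19 had no peak here, with the nearest 25.3 kb away. Beyond the region, MTF2 in sh2 had further peaks from 8.27 to 10.4 kb before the TSS and from 10.9 to 22.1 kb after it, where shCT had 1 of 3489 bp (rank 3559).

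INHBA encodes the beta-A subunit, which forms activin A and inhibin A. The gene (ENSG00000122641, chr7:41724712-41742688, minus strand, GRCh37) had 1 peak in all, of MTF2 in sh2. It was 2568 bp wide (chr7:41737685-41740252), lay 2.44 to 5.00 kb after the MANE TSS over exon 2 and intron, and covered the start of another coding transcript. Its score of 89.97 ranked 11043 of 18287. It was the weakest and narrowest of the peaks that lay nearest to the TSS of a ligand gene in sh2, and it was no longer counted when only peaks at or above the median score were kept. In shCT the nearest MTF2 peak was 535 kb away. GDF15 (ENSG00000130513, chr19:18496968-18499986, plus strand) had no peak in any list, with the nearest MTF2 peak 218 kb away in shCT and 146 kb in sh2.

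The 4 genes bound by MTF2 in both lists had more bases under peaks in sh2 than in shCT. The ratio of sh2 to shCT was 2.33 in BMP7, 2.20 in BMP6, 1.61 in NODAL and 1.19 in INHBB. Over all 2928 genes bound in both lists the median ratio was 1.80, with quartiles of 1.28 and 2.84, and 91.3% had more bases in sh2. BMP7, BMP6 and NODAL lay between the quartiles and INHBB lay below the lower one. The ratio counts only bases within the searched region, of which 69.8% was already covered in shCT at INHBB and 43.9% at NODAL. The INHBB ratio is therefore bounded by the region, with 83.3% covered in sh2. Whether this bound accounts for its low place was not tested. The main INHBB peak was 6661 bp wide in shCT and 9029 bp in sh2, and both ran past the end of the region. Summed over the 10 genes, MTF2 covered 41174 bp in shCT and 84314 bp in sh2, a ratio of 2.05 beside 2.18 for the whole lists. With the sh2 list limited to its 12502 top-scored peaks, as many as in shCT, the ratio was 1.73 for the genes and 1.79 for the lists. The increase at the ligand genes was therefore of the size found for the lists as a whole, and the depth of the libraries, which is not known here, and the hairpin cannot be told apart as its source.

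The CG content of a single peak per gene and list, over or nearest to the TSS, was set beside that of all peaks of the list, wherever they lay. BMP6 had 5.91 CG per 100 bp under its PHF19 peak, 5.95 under MTF2 in shCT and 4.02 under MTF2 in sh2. BMP7 had 8.34 in shCT and 5.42 in sh2. The medians of the lists were 1.74 for PHF19, 2.24 for MTF2 in shCT and 2.01 for MTF2 in sh2, and the upper quartiles were 3.53, 3.35 and 2.88. NODAL had 3.35, 3.03 and 3.07 in the same order, and the widest peak at INHBB, which in shCT began after the TSS, had 3.50 in shCT and 3.90 in sh2. These peaks of BMP6, BMP7 and INHBB lay above the upper quartile of their lists. The NODAL peak lay between the median and the upper quartile for PHF19 and for MTF2 in shCT, and above the upper quartile in sh2. The second sh2 peak of NODAL, 26 bp away, had 1.29, whereas the shCT peak was not split there. The BMP7 peak beside the TSS peak, in intron 1, had 2.55 in shCT and 1.86 in sh2, the latter below the median. The other BMP6 peaks in the region had 0.839 to 2.15, each below the median of its list. The INHBA peak, at 1.71, also lay below the median.

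The transcript level was available as the authors' mean of normalized counts over all 6 libraries, which has no error here. Only 3 of the 10 genes, GDF15, BMP7 and LEFTY2, had a mean of at least 10, beside 53.7% of the 27348 genes of the table. GDF15 had a mean normalized count of 862 and ranked 6770. BMP7 had a mean of 38.2 (rank 12355) and LEFTY2 one of 20.2 (rank 13423). The means were 5.68 for BMP2, 4.13 for INHBA, 2.5 for LEFTY1, 2.47 for BMP6, 1.68 for BMP4 and 0.344 for NODAL, and INHBB was listed at 0, as were 22.3% of all genes. The median over the 10 genes was 3.31, beside 17.5 over the table. Divided by the length of the MANE transcript, the mean normalized count per kb was 719 for GDF15, 10.0 for LEFTY2, 9.51 for BMP7, 1.60 for BMP2, 1.54 for LEFTY1, 0.871 for BMP4, 0.683 for INHBA, 0.652 for BMP6 and 0.167 for NODAL. Whether neighbours in this order differ cannot be said without values per library.

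**Figure D5:**
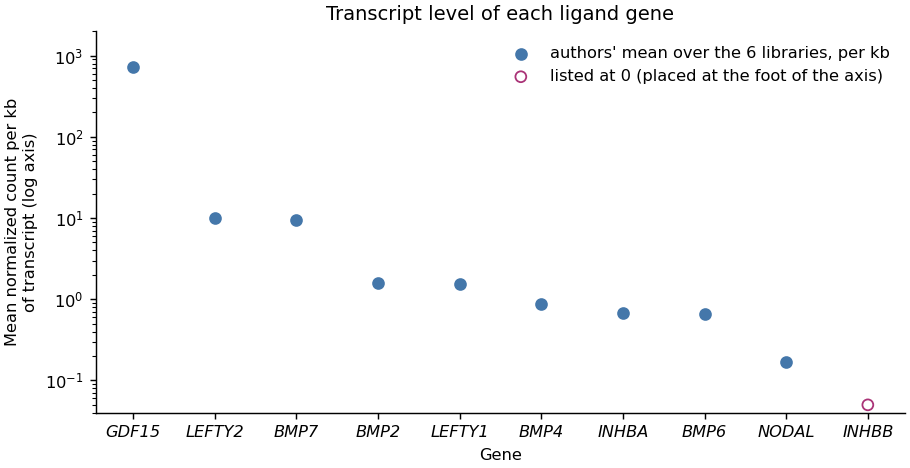
Authors' mean normalized count over the 6 RNA-seq libraries per kb of MANE transcript (y axis, log scale) for each ligand gene (x axis), with no error because the mean is a single value. GDF15 at 719 stands above LEFTY2 at 10.0, and INHBB, listed at 0, is drawn as an open circle at the foot of the axis.

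Set beside the peaks, the unbound genes held both the highest level, that of GDF15, and low ones such as BMP4, and the bound genes ran from 0 for INHBB to 38.2 for BMP7 in mean normalized count. NODAL and BMP6, with peaks of all 3 lists, had means of 0.344 and 2.47. LEFTY1 and LEFTY2 are close copies: 31.3% of the stretches of 50 bases in LEFTY1 also occurred in LEFTY2. Because reads that map to both copies could be lost or assigned to either, the levels of both are uncertain.

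The other genes of the pathway were taken as a list of 70. PHF19 peaks in shCT lay at 13 of them, or 18.6%, MTF2 peaks in shCT at 14, or 20.0%, and MTF2 peaks in sh2 at 17, or 24.3%, beside 10.3%, 13.7% and 18.2% of all genes. No peak lay at 46, or 65.7% beside 78.1%. A mean normalized count of at least 10 was found for 47 of the 70, beside 53.7% of all genes. This list too was chosen with earlier results of these data known, and its shares were not tested. Among the 23 other ligands, 2, 5 and 7 had peaks of the 3 lists in that order, or 8.70%, 21.7% and 30.4%. GDF6, a BMP-like ligand of joints and eye, had 5871 bp under MTF2 in shCT and 12436 bp in sh2 and none under PHF19. GDF1, which acts with NODAL, had 2064 bp under PHF19 and 966 and 2073 bp under MTF2 in shCT and sh2, and GDF10 had 430, 1058 and 1702 bp. GDF7 and BMP8A had MTF2 peaks only, over 3179 and 2846 bp in sh2.

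Of 17 receptors and co-receptors, 3 had a PHF19 peak (17.6%) and 2 an MTF2 peak in each list (11.8%). The shares of all genes were 10.3% for PHF19, 13.7% for MTF2 in shCT and 18.2% for MTF2 in sh2. With 17 genes, neither an excess nor a deficit can be read from these counts. ACVRL1, a receptor of endothelial BMP signalling, and ACVR1B, the type I receptor of activin and NODAL, had 1988 bp (2 peaks) and 990 bp (1 peak) under PHF19 and no MTF2 peak. Their best PHF19 peaks ranked only 2400 and 4311 of 5621, in a list to which the study's tag filter was not applied here. ACVR1C, another receptor of NODAL, had MTF2 peaks only (1600 bp in shCT and 2283 bp in sh2), and NEO1, a co-receptor, had 1151 bp under PHF19 and 2502 and 5054 bp under MTF2. Among the 13 SMADs and partners, all of which had a mean of at least 10, the counts were 1, 2 and 3, or 7.69%, 15.4% and 23.1%. SMAD9 had peaks of all 3 lists (1481, 1709 and 6095 bp), SMAD7, an inhibitory SMAD, of MTF2 in shCT and sh2 (1317 and 3162 bp), and SMAD1 of MTF2 in sh2 alone (2449 bp).

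The 13 antagonists and processing enzymes had 6 members with a PHF19 peak (46.2%) and 5 with an MTF2 peak in each list (38.5%), beside 10.3%, 13.7% and 18.2% of all genes. The best PHF19 peaks of the 6 ranked from 1060 to 4907 of 5621, in a list to which the study's tag filter was not applied here. The 5 genes with an MTF2 peak were not the same in both lists: GREM1 had one in shCT only (548 bp) and FSTL3 in sh2 only (2232 bp). CHRD, which encodes the BMP antagonist chordin, had 1829 bp under PHF19 and 2656 and 7347 bp under MTF2. FST, which encodes the activin-binding follistatin, had 3234, 4202 and 4611 bp, and PCSK6, a convertase that processes such ligands, 910, 812 and 12299 bp. PCSK6 was searched over 237917 bp. Its best peaks ranked only 3696 of 5621 for PHF19, 12049 of 12502 for MTF2 in shCT and 4977 of 18287 in sh2. BAMBI, a decoy receptor, had a PHF19 peak of 1431 bp (rank 2713 of 5621) and none of MTF2. Among ID1 to ID4, the classical BMP target genes, ID3 had 2 PHF19 peaks over 2717 bp in all (best rank 3366 of 5621), and none of the 4 had an MTF2 peak. Since only 13.7% (shCT) and 18.2% (sh2) of all genes had an MTF2 peak, nothing can be read from its absence at 4 genes.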

How the data were processed

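The authors aligned RNA-seq reads to hg19 with TopHat, with an option meant to drop reads that map to several places, counted them over RefSeq exons and compared the shRNA libraries with shCT by DESeq2. The deposited table has a mean normalized count over all 6 libraries, treated here as a score, and the authors' own fold changes, standard errors, statistics and p-values, which were not used. The authors mapped ChIP-seq reads with Bowtie to hg19 and dm3 (fly spike-in) and called peaks with MACS at a shift of 100 bp. For each peak the authors deposited a position and the caller's score. Tool versions: not given in the sources used here. The PHF19 list's heading names a further sample, sh4, beside the shCT chromatin, and the control of that call is not given. No tag counts were used, so the study's tag filter and spike-in scaling were not applied, and depth is unknown. PHF19 in sh1 and in sh2 and IgG, 3 libraries in all, were not analysed here.

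Genes were placed by GENCODE 44 on GRCh37, the assembly of hg19, where 22969 of 27348 symbols matched 1 gene, in Python 3.11.15 with numpy 2.4.6 and pandas 2.3.3. Figures were drawn with matplotlib 3.10.9. Coordinates are 1-based. Overlap and distance steps were tested on simulated data. Alternatives were other regions, peak subsets, overlaps and level minimums. The promoter sequence of 1 member, BMP2, is not reported here. The members and lists were chosen with earlier results of these data known. Named were all 10 members, up to 3 pathway genes per role with the most bp under PHF19 peaks and up to 3 under MTF2 peaks in sh2, PHF19, MTF2 and genes that share a member's promoter peak.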

Additional observations from a re-analysis of the deposited data

How the results depend on the processing

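The counts of members with a PHF19 peak (2) and an MTF2 peak in shCT (4) were the same under each alternative tried. One was a wider region, from 10 kb upstream to 10 kb beyond the transcript end. The others were peaks within 2.5 kb of a TSS, peaks at or above the median score, a larger overlap, and coding transcripts only. The count for MTF2 in sh2 was 5 under all these alternatives and with as many sh2 peaks as in shCT, with 1 exception. INHBA was lost with peaks at or above the median score, which left 4. The ratio of bases under MTF2 peaks, 2.05, moved to 1.73 with as many sh2 peaks as in shCT and to 2.12 with the wider region. At a minimum mean of 1, 8 members were above it (67.2% of all genes), and at 100 only GDF15, 1 member, was (40.1%). For the list of 70 genes, alternatives were added after seeing the data, and MTF2 in shCT fell from 14 to 9 genes with peaks at or above the median score. No paired analysis was possible because the RNA-seq values used here are 1 mean over all libraries. Leaving out a replicate was not possible for the same reason, and each peak list comes from 1 library.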

Other observations

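Several neighbouring peaks of 1 list were almost joined. The gap between them was 26 bp at NODAL (MTF2 in sh2), 37 bp at BMP6 (PHF19), 62 bp downstream of INHBB (MTF2 in sh2), and 123 and 105 bp at BMP7 (MTF2 in shCT and sh2). A peak number at these genes therefore depends on where the caller split a stretch, while the number of covered bases hardly does.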
